A study of Mus musculus with 8 samples.

Results

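The cytosolic ribosomal protein genes encode the proteins of the large (Rpl) and small (Rps) subunits of the ribosome that translates nuclear messages. They were taken as every protein-coding gene whose symbol is Rpl or Rps followed by a digit, with Rplp0, Rplp1, Rplp2 and Rpsa, and without the Rps6k kinases and pseudogenes. This rule found 86 of 35498 annotated genes. Of these, 77 are core ribosomal proteins, 46 of the large and 31 of the small subunit. A further 8 are paralogs of core genes (Rpl22l1, Rps27l, Rpl36al, Rpl7l1, Rpl39l, Rpl3l, Rpl10l and Rps27rt). The remaining member, Rps19bp1, encodes a protein that binds Rps19 and is not itself a ribosomal protein. Some genes that encode a ribosomal protein as a fusion, such as Fau, have symbols outside the rule and were counted with other translation genes.

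Ribosomal protein messages are among the most abundant in growing cells, and the proteins they encode are assembled with ribosomal RNA in the nucleolus in fixed proportions. Their messages begin at a cytosine followed by a run of pyrimidines, the 5' terminal oligopyrimidine or TOP tract, through which the kinase complex mTORC1 and the RNA-binding protein LARP1 control their translation. Some members also act outside the ribosome, such as Rpl5 and Rpl11, which bind MDM2 with the 5S ribosomal RNA when assembly fails.

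The libraries were bulk RNA sequencing of mouse sarcoma cells, which were C57BL/6 mesenchymal stem cells transformed by p53 loss and Ccne1 overexpression. All groups carry both of these changes. The hairpin groups were shMif, with a short hairpin RNA against Mif, and shSCR, with a control hairpin. The CRISPR groups were sgMif, with Cas9 and a guide RNA against Mif, and sgSCR, with Cas9 and a control guide. The series text gives Cas9 for the hairpin cells too, and the sample protocols give it for the guide samples. The sample titles label sgMif as Mif-KO (knockout), shMif as Mif-KD (knockdown) and both control groups as Mif-WT (wild type). Cells were grown under the skin of mice on polyurethane scaffolds to tumours of about 1 cm3, then digested and sorted on a fluorescent marker. Each group held 2 libraries of 19042235 to 51819308 estimated reads. Whether both libraries of 1 group derive from different mice or tumours is not stated in the labels. The spread behind each p is that between libraries, and it may be technical.

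Mif encodes a secreted cytokine and was the targeted gene. It stood at 221 and 222 CPM (counts-per-million units) in sgMif and at 377 and 455 CPM in sgSCR. In the hairpin system it stood at 277 and 222 CPM in shMif and at 170 and 375 CPM in shSCR, so these groups overlapped and shMif libraries are so called after their label. The 6 mesenchymal markers (Col1a1, Col1a2, Col3a1, Pdgfrb, Vim and Sparc) summed to 28162 and 36960 CPM in shMif, 16852 and 22450 CPM in shSCR, 35524 and 34977 CPM in sgMif, and 31429 and 31324 CPM in sgSCR, with no marker at 0. The 12 macrophage markers summed to 358 and 175 CPM in shMif, 188 and 214 CPM in shSCR, 119 and 91.9 CPM in sgMif, and 446 and 181 CPM in sgSCR, with Cd163 at 0 in both sgMif libraries. The 5 endothelial markers summed to 32.9 to 277 CPM, and lists for B cells, T and NK cells, neutrophils, red cells and keratinocytes to at most 70.5 CPM each. Reads on 1406 olfactory receptor genes exceeded 1000 CPM in 5 libraries (both of sgSCR and library 1 of the other groups), and their part in the results below was not tested.

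Annotated starts of several members described below are shown to let the TOP tract, or a start without one, be seen beside the values. Start sites were matched by symbol in RefSeq (mouse build GRCm38.p6, the same assembly as mm10) for 66 members, 57 of them core. Each line gives 30 bases, 15 on either side of the boundary before the start, so that base 16 is the annotated start. Capitals mark the longest unbroken run of C and T. The first 5 begin at a C followed by at least 4 pyrimidines, and the last 5 belong to members named in the comparisons below.
Rps6: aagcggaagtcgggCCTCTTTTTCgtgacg
Rps18: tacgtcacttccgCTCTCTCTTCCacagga
Rps27: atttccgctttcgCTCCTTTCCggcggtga
Rpl15: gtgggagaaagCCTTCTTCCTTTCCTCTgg
Rpl35: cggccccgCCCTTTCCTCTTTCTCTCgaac
Rpl12: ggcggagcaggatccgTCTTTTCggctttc
Rpl10a: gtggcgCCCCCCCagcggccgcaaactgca
Rpl22: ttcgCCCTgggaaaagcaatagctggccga
Rpl23: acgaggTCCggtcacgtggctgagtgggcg
Rpl24: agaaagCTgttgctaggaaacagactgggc

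The windows lie at chr4:86857353-86857382 (minus strand) for Rps6, chr17:33955651-33955680 (minus) for Rps18, chr3:90213634-90213663 (minus) for Rps27, chr14:18270972-18271001 (minus) for Rpl15 and chr2:39005117-39005146 (minus) for Rpl35. They lie at chr2:32961697-32961726 (plus) for Rpl12, chr17:28328456-28328485 (plus) for Rpl10a, chr4:152325711-152325740 (plus) for Rpl22, chr11:97782425-97782454 (minus) for Rpl23 and chr16:55966260-55966289 (plus) for Rpl24. A start at C followed by at least 4 pyrimidines was found in 12 of 57 core members, 21.1%, and in 265 of 11569 tested genes with a RefSeq start, 2.29%. A run of at least 8 pyrimidines on the sense strand anywhere in the 30 bases was found in 23 of the 57, 40.4%, and in 1361 of the 11569, 11.8%. With or without such a run, only these annotated bases are described, since a start used in these cells may lie elsewhere. For the starts shown, the distance to the start of the member's leading model by TPM ran from 0 bases (Rpl10a) to 360 bases (Rpl15). It was 153 bases for Rpl12, 163 for Rpl23 and 146 for Rpl24. Among the 12 core members counted, it reached 3171 bases, for Rplp2.

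Core members were abundant and differed widely among themselves in level per length, in TPM (transcripts-per-million units). The mean over the 8 libraries ran from 344 TPM for Rpl12 to 5946 TPM for Rps15a, with a median of 1538 TPM, and 62 of the 77 exceeded 1000 TPM. The quartiles were 1077 and 2127 TPM. The large subunit had a median of 1430 TPM and the small subunit one of 1694 TPM. Although the proteins enter the ribosome mostly in 1 copy each, the highest core message stood 17.3-fold above the lowest.

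The most abundant members included Rps15a, Rplp1, Rpl41 and Rpl23. Rps15a (chr7:118104372-118116188, minus strand), a small-subunit protein, had 4395 and 6415 TPM in shMif, 6221 and 9422 TPM in shSCR, 4949 and 6165 TPM in sgMif, and 5258 and 4744 TPM in sgSCR. One shSCR library stood above all others for it. Rplp1, an acidic protein of the stalk that recruits elongation factors, had 4321 and 3909 TPM in shMif, 1516 and 4074 TPM in shSCR, 4662 and 3788 TPM in sgMif, and 4730 and 5310 TPM in sgSCR. Here the first shSCR library stood far below the rest. Rpl41, a very short basic peptide of the large subunit, ranged over 3332 to 4458 TPM.

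The paralogs were far lower. Rpl22l1 averaged 130 TPM against 1186 TPM for Rpl22, Rps27l 123 TPM, Rpl7l1 87.0 TPM and Rpl36al 211 TPM. Rpl39l, the testis-enriched counterpart of Rpl39, had 0 to 12 reads a library. Rpl3l, the striated-muscle counterpart of Rpl3, had 0 to 6 reads, and Rpl10l and Rps27rt had none, so these 3 members did not pass the filter on low counts. The filter left 83 members among 16309 tested genes. Rpl39l passed it on a few reads and its fold changes are not interpreted. Rps19bp1 averaged 46.4 TPM.

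**Figure D1:**
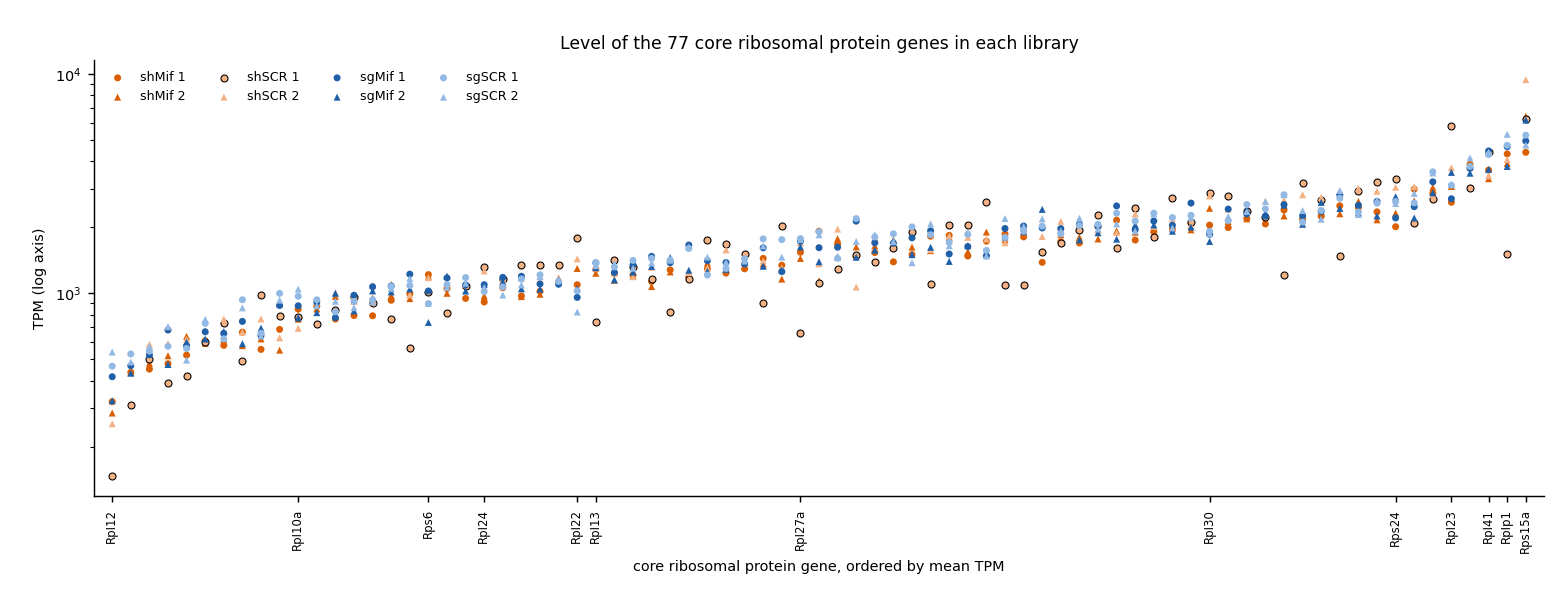
TPM of each of the 77 core ribosomal protein genes (horizontal axis, ordered by mean, with some genes of the text named) in each of the 8 libraries on a log axis; colours give the group, circles library 1 and triangles library 2, and shSCR 1 is outlined in black. The genes span 344 to 5946 TPM by their means, and the outlined shSCR 1 points lie at the edge of the range for 52 of the 77.

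The first shSCR library stood apart from the other 7 in its ribosomal protein profile. Its TPM lay outside the range of the others for 52 of the 77 core genes, 23 of them highest and 29 lowest. That is 67.5% of core genes, against 50.8% of 8002 genes with a mean above 10 TPM in the same library, while the other libraries lay outside for 8 to 22 core genes. The genes that were lowest in it included Rplp1 at 0.351 times the median of the others, Rpl27a at 0.386 and Rpl12 at 0.452. Those that were highest included Rpl23 at 1.87 times and Rpl22 at 1.71.

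Members moved in both directions within the pair. Between the shSCR libraries (2 minus 1) the interquartile range of the members' log2 difference was 0.60, against 0.17 to 0.21 in the other pairs. The difference exceeded 1.5-fold for 20 members in shSCR and for 1 in each other pair. Without shSCR 1, core levels varied little, with a median coefficient of variation over 7 libraries of 9.54%. It ran from 2.18% for Rpl21 to 29.0% for Rps15a.

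Other properties of that library also differed. For transcripts of at least 3000 bases, the median gap between length and Salmon's effective length was 251 bases in shSCR 1 and 386 to 460 bases in the other libraries. It lay within 10 bases of its median for 19.9% of these transcripts, against 1.36 to 1.91% elsewhere. Across 7997 genes, Spearman's rho between GC content and a library's deviation from the other 7 was -0.36 for shSCR 1, whereas the remaining libraries gave -0.14 to 0.24. Across the 77 core genes it was -0.37 in shSCR 1, within the range of the other libraries, -0.45 to 0.42. Genes of 1 library are not independent replicates, so no p is given. The part of these properties in the results was not tested. Values of most members named in a comparison that involves shSCR are given with and without this library. Counts of members whose groups did not overlap are given only with it.

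**Figure D2:**
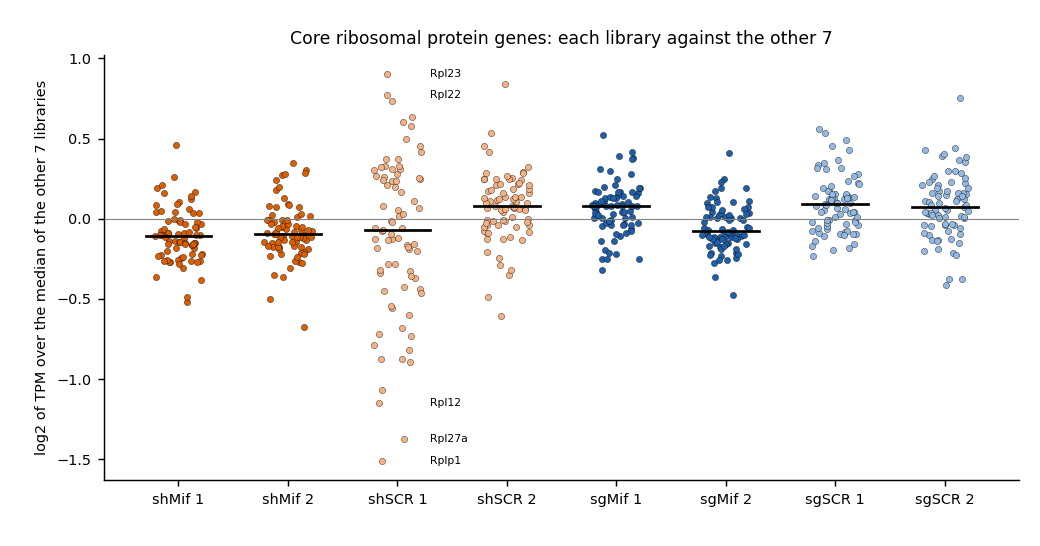
The log2 of a core gene's TPM in 1 library over its median in the other 7 (vertical axis), by library; each point is 1 of 77 genes and the black line is the median. The points of shSCR 1 spread from Rplp1 at 0.351 times to Rpl23 at 1.87 times, over a wider range than in any other library.

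Many members have processed pseudogenes that their reads can match. Transcripts of 620 other genes, 610 of them pseudogenes, matched a member's transcript at 95% identity or more over at least 80% of its length, and 81 of the 86 members had at least 1 such copy. Of all reads assigned to members and copies, copies held 7.42 and 8.36% in shMif, 13.6 and 8.81% in shSCR, 7.99 and 8.26% in sgMif, and 8.54 and 7.47% in sgSCR. The share in shSCR 1 stood above all others.

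The share was uneven between genes. Of the reads of Rpl12 and its copies, 61.8 and 66.2% were assigned to copies in shMif, 88.0 and 72.7% in shSCR, 60.9 and 64.4% in sgMif, and 65.0 and 58.6% in sgSCR. For Rpl11 copies held 70.0% in shSCR 1 and 35.4 to 43.8% elsewhere, and for Rpl13 39.0% in shSCR 1, 6.85% in shSCR 2 and 0.371 to 1.96% elsewhere. For Rplp1, Rpl23 and Rpl30 copies held less than 1% in every library. For Rps6 copies held 51.9% in shSCR 1 and 18.5 to 34.7% elsewhere. Levels of genes such as Rpl12, Rpl11, Rpl27a, Rps6, Rps7 and Rps12 are therefore uncertain by the amount that may have been assigned to copies.

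Reads of a member were also divided among its annotated transcript models. In 19 of 83 members more than 50% of reads fell on models not annotated as protein-coding, and in 8 of these more than 90% did (Rps26, Rpl37, Rpl23a, Rps23, Rpl35, Rpl23, Rpl27a and Rpl22l1). In 9 of the 19 the leading such model nonetheless holds every coding base of the coding model, as Rpl24-204 does for Rpl24. Over all members, protein-coding models held 78.3 and 78.8% of reads in shMif, 75.7 and 78.5% in shSCR, 79.0 and 78.9% in sgMif, and 78.2 and 78.3% in sgSCR.

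Models of 3 members with known alternative splicing differed between libraries. The model Rps24-205 held 11.8 and 10.7% of Rps24 TPM in shMif, 13.5 and 12.3% in shSCR, 5.56 and 4.0% in sgMif, and 3.57 and 6.69% in sgSCR, so the 4 hairpin libraries lay above the 4 CRISPR libraries. The retained-intron model Rps3-203 held 8.61 and 13.6% of Rps3 TPM in shMif, 12.9 and 19.9% in shSCR, 9.61 and 15.4% in sgMif, and 4.69 and 4.80% in sgSCR. The sgSCR libraries were lowest. Rpl10a-212, a coding model, held 41.8% of Rpl10a TPM in shSCR 1 and 0% in the other libraries. These are estimates that share reads with other models of the same gene, and no test was made on them.

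The family's summed share of TPM was lower in the Mif-targeted libraries of both systems. The 86 members held 12.3 and 12.5% of TPM in shMif, against 12.9 and 14.0% in shSCR. In the CRISPR system they held 13.4 and 12.7% in sgMif, against 13.7 and 13.6% in sgSCR. Neither pair of groups overlapped. The ratio of means was 0.922 for shMif over shSCR (12.4 ± 0.203% and 13.5 ± 0.792%, SD, n = 2 each) and 0.954 for sgMif over sgSCR (13.0 ± 0.500% and 13.6 ± 0.0445%, SD, n = 2 each). In the exact two-sided permutation test over samples both gave p = 0.333, the smallest that 2 against 2 allow. The design therefore could not pass a threshold of 0.05. A share also depends on the other genes of a library. With libraries scaled by total counts alone, the members' median log2 fold change in sgMif against sgSCR was -0.11, beside -0.08 over all genes. In shMif against shSCR it was -0.11, beside 0.05 over all genes.

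As a share of reads, members held 4.58 and 4.64% in shMif, 4.72 and 5.03% in shSCR, 4.89 and 4.56% in sgMif, and 5.06 and 5.04% in sgSCR. With the reads of copies added, the shares were 4.95 and 5.07% in shMif, 5.46 and 5.52% in shSCR, 5.32 and 4.97% in sgMif, and 5.53 and 5.44% in sgSCR. The order within both systems was the same on this measure, and the 2 control groups overlapped. As a share of the TPM of nuclear protein-coding genes, shMif stood at 15.8 and 16.6% and shSCR at 15.5 and 17.8%, which overlapped (exact p = 1).

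**Figure D3:**
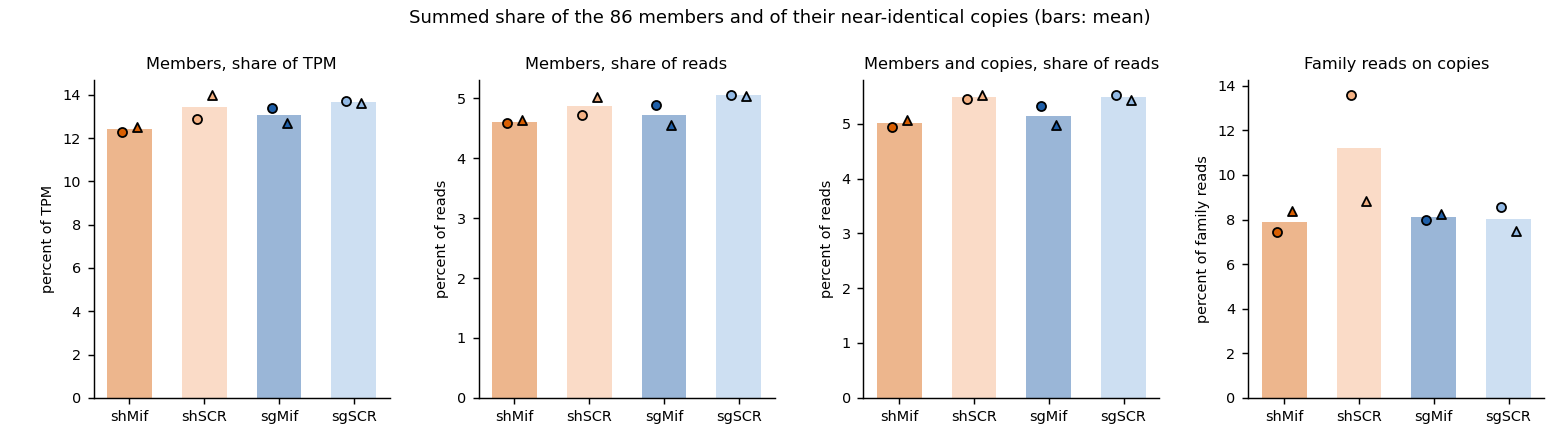
Percent of TPM on the 86 members, percent of reads on them, percent of reads on members and near-identical copies, and percent of family reads that fell on copies; bars are means of 2 libraries, circles library 1 and triangles library 2. Members with copies held 4.95 to 5.32% of reads in the Mif-targeted libraries and 5.44 to 5.53% in the controls.

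The comparison of sgMif with sgSCR asks what a guide against Mif changes in sarcoma cells. No member changed past the threshold of an adjusted p of 0.05 in edgeR's quasi-likelihood test, where 0.987% of all genes did. At an unadjusted p under 0.05 there were 3 members of 83 (2 higher, 1 lower), against 16.6% of all genes, and DESeq2 called 0, against 6.58%. The members' median log2 fold change was -0.04, beside -0.01 over all genes. The groups did not overlap for 12 members that were higher and 28 that were lower in sgMif, against 27.1% and 24.2% of all genes. Both subunits had medians near 0, at -0.05 for the large and -0.03 for the small.

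The smallest p values in sgMif belonged to paralogs and an exit-tunnel protein. Rps27l, a paralog of Rps27 induced by p53 in other cells, had 37.6 and 32.1 CPM in sgMif and 26.6 and 26.0 CPM in sgSCR, without overlap. Its log2 fold change was 0.40 ± 0.15 (SE; adjusted p = 0.239, edgeR). Rpl7l1, which is found in assembling large subunits, had 117 and 113 CPM in sgMif and 93.9 and 91.1 CPM in sgSCR (0.31 ± 0.14, adjusted p = 0.301, edgeR). Rpl39, which lines the tunnel through which the new protein leaves, had 219 and 181 CPM in sgMif and 273 and 255 CPM in sgSCR (-0.40 ± 0.17, adjusted p = 0.293, edgeR). Of their core counterparts, Rps27 stood at -0.13 and Rpl7 at 0.06.

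At the ends of the range, Rpl4, whose protein reaches into the exit tunnel, stood at 0.28. Rpl14 and Rps2 stood at 0.21, and Rpl36al at -0.29, Rpl10a at -0.29 and Rpl12 at -0.33. With the reads of copies added, Rpl36al stood at -0.14, Rpl10a at -0.17 and Rpl12 at -0.30. On that measure Rpl4, Rpl14 and Rps2 stood at 0.28, 0.21 and 0.17. For the stalk, Rplp0, Rplp1, Rplp2 and Rpl12 were all below 0, from -0.06 to -0.33. The MDM2-binding pair Rpl5 and Rpl11 stood at 0.05 and 0.10, Rps6 at 0.00, Rpsa at 0.14 and Rps19 at -0.05. With copies added Rpl5 stood at -0.03, Rpl11 at 0.06 and Rps6 at 0.08. None of these passed the threshold (edgeR).

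The comparison of shMif with shSCR puts the same question with a hairpin, in libraries where Mif itself overlapped because of its level in shSCR 1. Again 0 of 83 members changed in edgeR's test, where 0.0184% of all genes did. All 12 members with an unadjusted p under 0.05 were lower in shMif, and 9.26% of all genes had such a p. DESeq2 called 1 member, Rpl23, and 1.24% of all genes. The members' median log2 fold change was -0.13, beside 0.03 over all genes, and 51 of 83 were below 0. The groups did not overlap for 4 members that were higher and 36 that were lower in shMif, against 19.4% and 22.3% of all genes.

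Rpl23, a large-subunit protein that also binds MDM2, is encoded at chr11:97777527-97782437 (minus strand). It had 1070 and 1196 CPM in shMif and 2074 and 1558 CPM in shSCR, so the groups did not overlap. Its log2 fold change was -0.68 ± 0.17 (SE; adjusted p = 0.439, edgeR), and DESeq2's adjusted p was 0.0200. Without shSCR 1 it was -0.46 ± 0.16. On protein-coding models alone it was 0.41, and 95.2% of Rpl23 reads fell on other models.

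Rpl24 (chr16:55966275-55971435, plus strand), a large-subunit protein at the subunit interface, had 306 and 346 CPM in shMif and 458 and 445 CPM in shSCR. This gave -0.47 ± 0.13 (SE; adjusted p = 0.441, edgeR), and -0.45 ± 0.15 without shSCR 1. Its 2 main models traded shares, with the coding Rpl24-201 holding 60.1 and 46.3% of its TPM in shMif and 8.41 and 30.1% in shSCR. On protein-coding models alone the log2 fold change was 0.97. Rps24, whose human gene is mutated in Diamond-Blackfan anaemia, had 678 and 819 CPM in shMif and 1000 and 1063 CPM in shSCR (-0.46 ± 0.15, adjusted p = 0.484, edgeR). Rps24 stood at -0.51 without shSCR 1.

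The 5 members with the highest values in this comparison each had their lowest CPM of all 8 libraries in shSCR 1. Rpl12, a protein at the base of the stalk, had 245 and 233 CPM in shMif and 107 and 209 CPM in shSCR, a log2 fold change of 0.60 ± 0.28. With the reads of its copies added it had 641 and 691 CPM in shMif and 896 and 768 CPM in shSCR, and the value was -0.32 ± 0.13 (adjusted p = 0.518, edgeR). Rplp1 had 1008 and 966 CPM in shMif and 357 and 999 CPM in shSCR (0.54 ± 0.39), and -0.02 ± 0.17 without shSCR 1. Rpl13 had 728 CPM in both shMif libraries and 244 and 774 CPM in shSCR (0.52 ± 0.42), and -0.09 ± 0.13 without that library. Rps19bp1 and Rps12 stood at 0.42 and 0.35, and at 0.033 and 0.050 without it. Rpl12 stood at 0.19 without it.

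With shSCR 1 left out, 76 of 83 members were below 0 in shMif, with a median of -0.17 beside 0.00 over all genes. The values then ran from -0.51 to 0.19. No member was called, and 0.0287% of all genes were. The lone shSCR library is assumed here to vary like the other groups. With shSCR 2 left out in its place, the median was -0.02, beside 0.03 over all genes, and the values ran from -0.87 to 1.58.

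The members that lay lower without overlap in both systems numbered 10 of 83, against 4.18% of all genes, and 0 lay higher in both, against 4.57%. In each system by itself, 28 of 83 lay lower in sgMif and 36 in shMif, against 24.2% and 22.3% of all genes. Unrelated systems with counts of that size would on average share no fewer than 10 members. The 10 therefore do not show a fall common to both systems. Those lower in both included Rpl3, Rpl6, Rpl9, Rpl26, Rpl30, Rpl31, Rpl35a and Rps9. Their differences were small. Rpl9, a protein near the base of the stalk, had 452 and 481 CPM in shMif and 633 and 561 CPM in shSCR, and 488 and 475 CPM in sgMif and 526 and 530 CPM in sgSCR. Rpl26, which binds the Trp53 message in human cells, had 382 and 415 CPM in shMif and 543 and 489 CPM in shSCR, and 415 and 424 CPM in sgMif and 471 and 477 CPM in sgSCR. None of the 10 passed the threshold in either comparison (edgeR). In opposite directions without overlap in either system lay 9 members, 7 of them higher in sgMif and lower in shMif, against 13.1% of all genes.

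**Figure D4:**
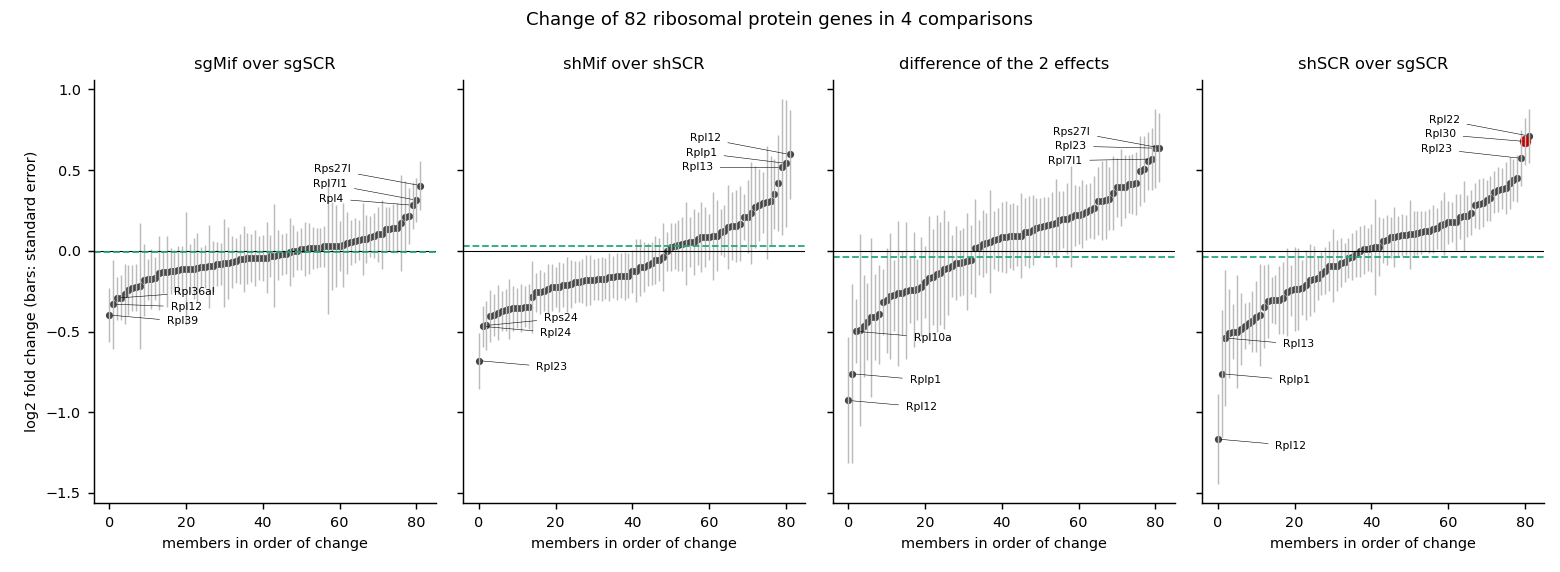
Log2 fold change with its standard error for 82 tested members (Rpl39l, with 0 to 12 reads, left out), ordered within each comparison; the dashed line is the median over all tested genes and the red point is Rpl30, the member past the threshold. Members spread from -0.40 to 0.40 for sgMif over sgSCR, and from -1.17 to 0.71 for shSCR over sgSCR.

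The difference between the effects in the 2 systems, (sgMif - sgSCR) - (shMif - shSCR), was tested in the same fit. No member passed, where 0.092% of all genes did. At an unadjusted p under 0.05 there were 8 members, 6 positive and 2 negative, against 15.8% of all genes, and DESeq2 called 0, against 4.54%. The median was 0.09, beside -0.04 over all genes. Rps27l (0.64 ± 0.22, adjusted p = 0.231, edgeR), Rpl23 (0.64 ± 0.25), Rpl7l1 (0.57 ± 0.19) and Rpl24 (0.55 ± 0.18) were highest, and Rpl12 (-0.93 ± 0.39), Rplp1 (-0.76 ± 0.55), Rpl10a (-0.50 ± 0.20) and Rpl13 (-0.49 ± 0.60) lowest. With shSCR 1 left out no member was called, where 0.103% of all genes were. The values were then 0.43 for Rpl23, -0.51 for Rpl12, -0.19 for Rplp1 and 0.13 for Rpl13, while Rps27l, Rpl7l1, Rpl24 and Rpl10a stood at 0.66, 0.44, 0.55 and -0.43.

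The comparison of shSCR with sgSCR sets the 2 control groups side by side, which differ in the method of targeting. It called 1 member of 83, which was higher in shSCR, while 4.02% of all genes passed and 2.23% passed as higher. At an unadjusted p under 0.05 there were 17 members, 12 higher and 5 lower, against 22.9% of all genes. DESeq2 called 9 members, 5 higher and 4 lower, against 13.3%. The groups did not overlap for 27 members that were higher and 15 that were lower, against 28.4% and 26.3%.

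The member called was Rpl30 (chr15:34440505-34443640, minus strand), a large-subunit protein whose yeast counterpart regulates splicing of its own message. It had 776 and 771 CPM in shSCR and 486 and 481 CPM in sgSCR, 1.60-fold higher, with the libraries of each group close together. The log2 fold change was 0.68 ± 0.15 (SE; adjusted p = 0.0469, edgeR). The other hairpin libraries had 529 and 681 CPM in shMif and the other CRISPR libraries 474 and 463 CPM in sgMif, so all 4 hairpin libraries lay above all 4 CRISPR libraries. Without shSCR 1 the value was 0.68 ± 0.17 with an adjusted p of 0.117 (edgeR). The value stayed between 0.68 and 0.70 on leaving out any 1 library, but the adjusted p was 0.0532 to 0.205 without either sgMif library, either sgSCR library, shMif 2 or shSCR 1. When libraries were scaled by total counts alone, 0 members were called as higher and 1 as lower.

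Rpl22, whose human gene is deleted or mutated in several cancers, had 527 and 427 CPM in shSCR and 306 and 277 CPM in sgSCR (0.71 ± 0.17, adjusted p = 0.0586, edgeR). Its paralog Rpl22l1 had 23.4 and 27.9 CPM in shSCR and 28.7 and 34.2 CPM in sgSCR (-0.29). Rpl23, at 0.57, and Rpl4, at 0.45, were also among the 5 highest. Without shSCR 1 Rpl22 stood at 0.56, Rpl23 at 0.36 and Rpl4 at 0.40.

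Rps6, the substrate of the S6 kinases downstream of mTORC1, had 582 and 654 CPM in shSCR and 455 and 469 CPM in sgSCR (0.42 ± 0.16, adjusted p = 0.176, edgeR). It had 629 and 673 CPM in shMif and 528 and 395 CPM in sgMif, so all hairpin libraries lay above all CRISPR libraries for it too. Without shSCR 1 Rps6 stood at 0.51 in shSCR against sgSCR. With copies added it had 1211 and 982 CPM in shSCR and 638 and 594 CPM in sgSCR. The value was then 0.83 ± 0.15 (adjusted p = 0.0297, edgeR). Rpl12 was lowest, with 107 and 209 CPM in shSCR and 326 and 384 CPM in sgSCR (-1.17 ± 0.28, adjusted p = 0.0592, edgeR). With copies added it had 896 and 768 CPM in shSCR and 932 and 929 CPM in sgSCR, and the difference was -0.16 ± 0.13. Rplp1 (-0.76), Rpl13 (-0.54), Rpl29 (-0.51) and Rpl39 (-0.50) followed, and the first 3 of these had libraries in shSCR that lay far apart. Without shSCR 1 Rpl12 stood at -0.75, Rplp1 at -0.19, Rpl13 at 0.076, Rpl29 at -0.096 and Rpl39 at -0.30.

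With copies added 2 members were called, Rps6 and Rpl30, both higher in shSCR, where 4.22% of all genes were. Without shSCR 1 none was, where 0.937% of all genes were. Without shSCR 1 the members' median was 0.11, beside -0.016 over all genes. With shSCR 2 left out in its place it was -0.061, beside -0.067 over all genes. The members' median in this comparison thus changed sign with the shSCR library used.

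**Figure D5:**
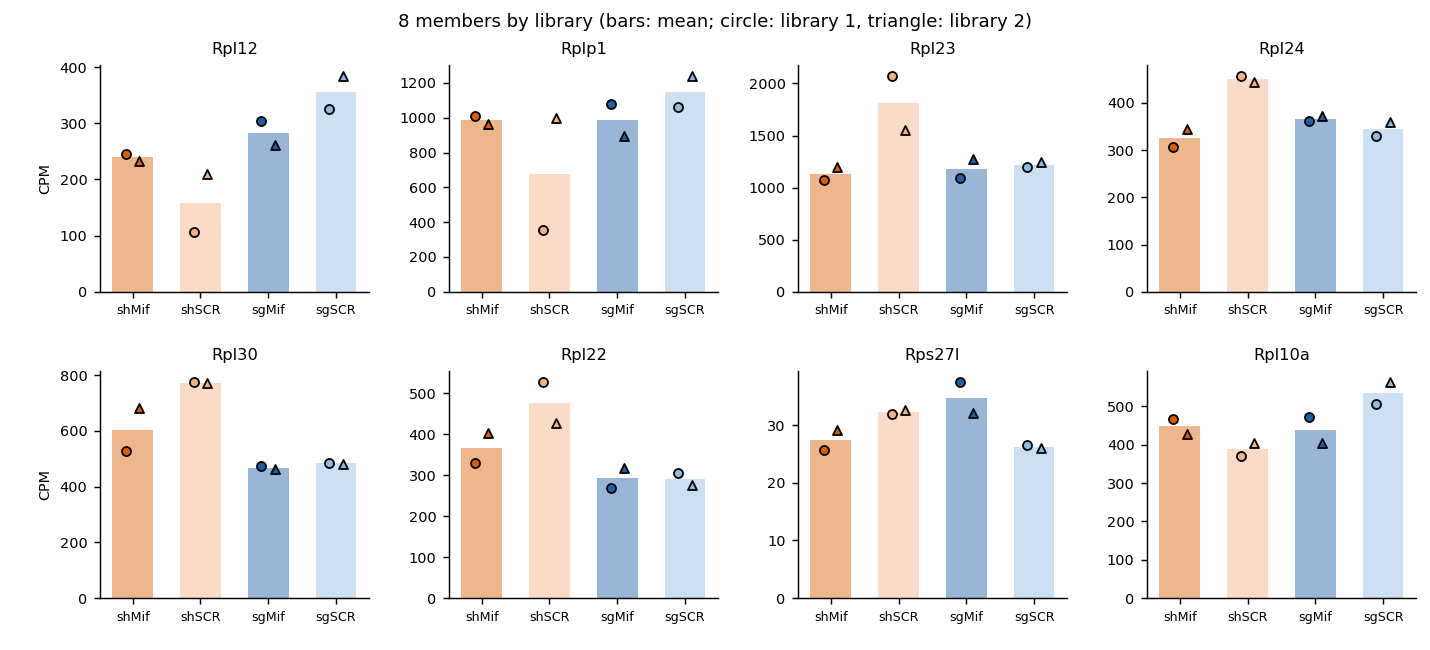
Normalised level in CPM of 8 members named in the comparisons, by group; bars are means of 2 libraries, circles library 1 and triangles library 2. Rplp1 shows 1 low shSCR library (357 CPM beside 999 CPM), whereas Rpl30 is 776 and 771 CPM in shSCR and 486 and 481 CPM in sgSCR.

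Genes that work with the ribosomal proteins were followed beside them. Lists were described by counts and medians, and most showed opposite signs in the 2 systems. The 71 ribosome biogenesis genes had a median of -0.27 in shMif against shSCR, with 61 below 0, and of 0.23 in sgMif against sgSCR, with 63 above 0. None passed the threshold in either (edgeR; all-gene medians 0.03 and -0.01). In sgMif the smallest p belonged to Dkc1, the pseudouridine synthase dyskerin (0.74, adjusted p = 0.0550), and in shMif to Wdr43 (-0.55, adjusted p = 0.424) and Gnl3 (-0.67), a nucleolar GTPase. In shSCR against sgSCR 6 of the 71 rose and 0 fell, where 2.23% of all genes passed as higher, the same background as for the counts of the next lists. They included Noc2l (0.73), the RNA helicase Ddx10 (0.92), the export adaptor Nmd3 (0.84) and Ebna1bp2 (0.88), with adjusted p of 0.0371 to 0.0401 (edgeR). Without shSCR 1 none of the 71 passed in that comparison, with 58 above 0 and a median of 0.25, and the median in shMif against shSCR was -0.23.

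The 24 other TOP-type genes had medians of -0.15 in shMif against shSCR (19 below 0) and 0.08 in sgMif against sgSCR (17 above 0), and none passed (edgeR). In shSCR against sgSCR their median was 0.34, and 2 rose, Hnrnpa1 (0.91, adjusted p = 0.0444) and the initiation factor Eif4b (0.82, adjusted p = 0.0458). Without shSCR 1 these stood at 0.66 and 0.63 with adjusted p of 0.128 and 0.138 (edgeR), and the list's median was 0.30. The 34 initiation and elongation factors stood at -0.25 in shMif against shSCR, 0.22 in sgMif against sgSCR and 0.25 in shSCR against sgSCR, and none passed in any of these (edgeR). The 19 chaperones and importers of ribosomal proteins stood at -0.18, 0.18 and 0.23 in the same order, and none passed. The ribosomal proteins themselves stood at -0.13, -0.04 and 0.02 in that order, and at -0.17, -0.04 and 0.11 without shSCR 1.

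The 78 mitochondrial ribosomal proteins, which make up the separate ribosome of that organelle, had medians of -0.07 in shMif against shSCR (-0.13 without shSCR 1) and 0.12 in sgMif against sgSCR (60 above 0), with none past the threshold (edgeR). In shSCR against sgSCR 1 rose, Mrps6 (1.01, adjusted p = 0.0223), which stood at 1.08 with an adjusted p of 0.0550 without shSCR 1 (edgeR). The 35 nuclear genes of oxidative phosphorylation stood at -0.09 in shMif against shSCR and 0.21 in sgMif against sgSCR, with none past the threshold. In shSCR against sgSCR their median was 0.17 and 3 rose, Cox6c, Ndufb3 and Uqcrh, by 0.78 to 1.06. None of these 3 passed without shSCR 1, where they stood at 0.66 to 0.97.

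Among 26 genes of mTORC1 signalling and TOP mRNA control, 1 fell in sgMif, where 0.987% of all genes passed in either direction. Sesn2, a stress-induced inhibitor of mTORC1, had 18.8 and 18.1 CPM in sgMif and 41.9 and 58.2 CPM in sgSCR (-1.44 ± 0.20, adjusted p = 0.0330, edgeR). It had 31.9 and 29.7 CPM in shMif and 20.7 and 26.4 CPM in shSCR, and was also lower in shSCR than in sgSCR (-1.09, adjusted p = 0.0320). Among 15 tested genes of the MYC and MDM2-p53 link, 1 fell in sgMif, where 101 of 16309 genes passed as lower. This was the cell-cycle inhibitor Cdkn1a, with 43.0 and 45.5 CPM in sgMif and 123 and 115 CPM in sgSCR (-1.42 ± 0.20, adjusted p = 0.0330, edgeR). Leaving out either library of sgMif or of sgSCR raised the adjusted p to between 0.0677 and 0.192 for Sesn2 and between 0.120 and 0.192 for Cdkn1a, with values of -1.67 to -1.17 and of -1.46 to -1.38. Leaving out a library of shMif gave 0.0584 and 0.0619 for Sesn2. Myc, which drives transcription of ribosomal protein genes, had 83.1 and 88.6 CPM in shSCR and 137 and 133 CPM in sgSCR and fell (-0.65, adjusted p = 0.0490). The Myc antagonist Mxd4 fell as well (-0.77, adjusted p = 0.0418). These were the 2 of this list that passed in shSCR, where 292 of 16309 genes passed as lower. Without shSCR 1 the values were -0.91 for Sesn2, -0.59 for Myc and -0.64 for Mxd4, and none of them passed. Of the genes named from these lists as past the threshold in shSCR against sgSCR, none held it when either sgSCR library was left out. Among them Myc, Hnrnpa1, Eif4b, Uqcrh, Ddx10 and Ebna1bp2 passed on leaving out shSCR 2, but on leaving out no other single library.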

How the data were processed

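Total RNA of sorted tumour cells was sequenced in 8 libraries, grouped by sample title. Per the submitters' processing notes, Trimmomatic and Salmon were used, with build mm10 (versions not given in the sources used here). Each deposited table gives, per the file headers, an estimated count of reads (NumReads) and a TPM value for each transcript of 1 library. Transcripts were joined to genes through GENCODE M21, and unmatched ones held 0.101 to 0.205% of reads. Estimated counts were summed per gene and rounded, filtered with filterByExpr (minimum 10, total 15), scaled by TMM and tested with edgeR 4.0.16 in R 4.3.3. The 4 group means were fitted together with 4 residual degrees of freedom, and p was adjusted over 16309 genes by the Benjamini-Hochberg method. DESeq2 1.42.0 was an alternative. The fits were tested on simulated data, and no outcome of that is given here. Near-identical copies were searched with blastn 2.17.0, and figures drawn in Python 3.11.15 with matplotlib 3.10.9.

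Named members are the paralogs and partners, those with known roles, the 5 highest and lowest by TPM and by log2 fold change per comparison, and those called; of other lists at most 4 genes with the smallest p per comparison. Some members that this rule names are not reported here. Other genes or values singled out were chosen after their values were seen. The members and lists were chosen with earlier results of these data known. Alternatives were other scalings, no filter, length-scaled counts, protein-coding models only, a replicate block, each system alone, the high olfactory class, and leaving out each library. Copies added, alone and with shSCR 1 left out, were chosen after seeing the data.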

Additional observations from a re-analysis of the deposited data

Results flagged for a closer look

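For 9 of 83 members the Mif-targeted groups lay on opposite sides of their controls in the 2 systems without overlap in either. This share is no higher than the 13.1% of all genes, so it does not set the members apart. The 6 of these whose fold changes are among the extremes of a comparison are given here. They were picked on the same values that the test of the difference used. The difference of the effects was tested in each case with edgeR, and none passed. Its log2 value was -0.93 for Rpl12 (adjusted p = 0.306), -0.50 for Rpl10a (adjusted p = 0.282), 0.51 for Rpl4 (adjusted p = 0.286), 0.57 for Rpl7l1 (adjusted p = 0.234), 0.64 for Rps27l (adjusted p = 0.231) and 0.55 for Rpl24 (adjusted p = 0.216). With shSCR 1 left out the 6 values were -0.51, -0.43, 0.46, 0.44, 0.66 and 0.55 in the same order. With copies added, Rpl12 stood at 0.02 and Rpl10a at -0.19.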

How the results depend on the processing

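Of single members' log2 fold changes under the alternatives, 696 kept their direction and their side of the threshold, 49 newly passed it, 10 no longer did and 21 changed sign. Rpl30 in shSCR against sgSCR was the only member past the threshold in the main analysis. All 10 that no longer passed were therefore Rpl30, and the 696 were mostly values short of the threshold throughout. The cause of each change was not tested. In sgMif against sgSCR the count of called members was 0 under every alternative run. The members' median moved to -0.11 with total counts alone, beside -0.08 over all genes. In shMif against shSCR the count was 0 in the main analysis, 1 with DESeq2, 1 with no filter, 16 among the 5 libraries above 1000 CPM on olfactory receptor genes (the high class, 1 residual degree of freedom), and 0 to 9 on leaving out 1 library. The median ran from -0.18 to -0.024 on leaving out 1 library and was -0.21 with copies added and shSCR 1 left out. For the difference of the effects the count was 1 with no filter, 6 in the high class and 0 to 5 on leaving out 1 library. Its median was -0.0054 with total counts alone and 0.17 with copies added and shSCR 1 left out.

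In shSCR against sgSCR 1 member was called in the main analysis, 9 with DESeq2, 5 with no filter, 27 in the high class, 2 with copies added, 0 with length-scaled counts, 0 with copies added and shSCR 1 left out, and 0 to 22 on leaving out 1 library. Leaving out a library of sgMif, a library of sgSCR, shMif 2 or shSCR 1 gave 0 each, and leaving out shSCR 2 gave 22. The median was -0.069 with total counts alone, -0.085 in the high class, 0.12 with copies added and shSCR 1 left out, and -0.061 to 0.11 on leaving out 1 library. The ratio of summed shares, 0.986, was 1.00 for reads with copies, 1.03 for TPM with copies, and 0.945 to 1.03 on leaving out 1 library.

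On protein-coding models alone Rpl23 stood at 0.41 in shMif, -0.52 for the difference and -0.68 in shSCR against sgSCR, and Rpl24 at 0.97 in shMif and -1.32 for the difference. With copies added Rpl12 stood at -0.32 in shMif and 0.021 for the difference, and Rps12 at -0.058 in shMif. With shSCR 1 left out as well, the values in shMif were -0.21 for Rpl12, -0.24 for Rps12, -0.19 for Rpl13 and -0.026 for Rplp1. Rpl13 was then 0.22 for the difference and 0.16 in shSCR. On leaving out 1 library Rpl13 ran from -0.094 to 1.58 in shMif, from -1.54 to 0.13 for the difference and from -1.60 to 0.076 in shSCR, Rplp1 from -0.023 to 1.47 in shMif, and Rpl39l from -5.53 to 5.07 in sgMif and from -1.55 to 0.23 in shMif.

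Same-numbered libraries of different groups deviated together weakly (correlations of 0.15 to 0.37 between group pairs), and 2 numbers a group are too few to show pairing. With the replicate block 0 members were called in each comparison, against 1 without it in shSCR against sgSCR, where the median was -0.052 and Rpl30 had an adjusted p of 0.172 (edgeR). Depth limits Rpl39l, Rpl3l, Rpl10l and Rps27rt, which had at most 12 reads a library.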
